A study of Mus musculus with 17 samples.

Results

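The 9 genes described here encode scaffold proteins of the excitatory postsynapse and the calmodulin-dependent machinery that sits beside them: Shank1, Shank2, Shank3, Dlg4, Dlgap1, Dlgap3, Camk2a, Camk2b and Nrgn. They were picked out by gene symbol, with earlier results of these data known. All 9 were found once in each of the 4 deposited count tables, which listed 31762 genes (ADM), 30552 (set 1), 30984 (set 2) and 24652 (hippocampus).

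The postsynaptic density is the protein sheet beneath the membrane of an excitatory synapse. Dlg4 encodes its main membrane-associated guanylate kinase scaffold, which holds glutamate receptors in place. The Dlgap proteins bind that scaffold on one side and the Shank proteins on the other, and the Shank proteins reach on to Homer and the actin cytoskeleton. Camk2a and Camk2b encode the alpha and beta subunits of calcium/calmodulin-dependent kinase II, the kinase that strengthens synapses after calcium entry. Nrgn encodes neurogranin, a small postsynaptic protein that binds calmodulin when calcium is low. In the hippocampus these proteins are known for their part in long-term potentiation and memory.

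The study measured RNA in 17 libraries of C57BL/6 mice, 14 from primary neuron cultures and 3 from hippocampus. The culture groups, with 2 libraries each, were ADM-treated neurons and their control, ApoE particle neurons and their control in set 1, and ApoE particle neurons, reconstituted ApoE particle neurons and their control in set 2. The hippocampus groups, with 1 library each, were ApoE shRNA mice with FC, control shRNA mice with FC and control shRNA mice without FC, so every mouse group carried an shRNA. The labels do not spell out ADM or FC, and they give no dose, time, age, culture age or vector. Nothing in them tells if a group's libraries are from separate cultures, so the p-values measure only the spread between these samples, which may be technical.

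Library totals ran from 14.62 to 19.14 M counts, and levels are given as counts scaled to a common library total (CPM). The 14 pan-neuronal marker genes, led by Mapt and Map2, summed to 8277 to 12370 CPM in the cultures, so neuronal transcripts were abundant as labelled. Other cells were present too: the 12 astrocyte markers summed to 765 to 4954 CPM in cultures, and the 12 microglia markers to 0.394 to 273 CPM. Apoe, the target of the shRNA, stood at 1384 CPM in the ApoE shRNA hippocampus with FC, 2797 CPM in the control shRNA hippocampus with FC and 1697 CPM in the control shRNA hippocampus without FC. In bulk RNA, fewer cells of a type and less RNA per cell cannot be told apart.

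The promoter windows of Nrgn, Camk2b and Shank3 are shown, 1 gene for each role (calmodulin binder, kinase, scaffold). They were picked because they fell together with the ApoE particle in set 1 under TMM scaling, Nrgn by far more than Camk2b and Shank3. With libraries scaled to the pan-neuronal marker sum, Nrgn alone of these was called. RefSeq promoter windows on GRCm38.p6, 250 bases before to 50 bases after a RefSeq start, were matched by symbol for 6 of the 9 genes. A RefSeq start need not be that of the gene as counted. Camk2b as counted starts at 6066362, outside its window, and Nrgn and Shank3 start inside theirs. The windows are chr9:37552696-37552995 on the minus strand (Nrgn), chr11:6065699-6065998 on the minus strand (Camk2b) and chr15:89499358-89499657 on the plus strand (Shank3), each written from 5′ to 3′ along its gene. Capitals mark matches, on either strand, to the GC box GGGCGG and the CCAAT box CCAAT.
Nrgn: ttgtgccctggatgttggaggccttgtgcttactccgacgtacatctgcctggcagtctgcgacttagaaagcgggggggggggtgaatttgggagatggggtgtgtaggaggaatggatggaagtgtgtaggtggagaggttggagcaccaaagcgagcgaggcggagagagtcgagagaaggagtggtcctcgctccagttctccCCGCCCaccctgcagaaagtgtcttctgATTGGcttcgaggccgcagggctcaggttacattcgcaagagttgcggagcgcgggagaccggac
Camk2b: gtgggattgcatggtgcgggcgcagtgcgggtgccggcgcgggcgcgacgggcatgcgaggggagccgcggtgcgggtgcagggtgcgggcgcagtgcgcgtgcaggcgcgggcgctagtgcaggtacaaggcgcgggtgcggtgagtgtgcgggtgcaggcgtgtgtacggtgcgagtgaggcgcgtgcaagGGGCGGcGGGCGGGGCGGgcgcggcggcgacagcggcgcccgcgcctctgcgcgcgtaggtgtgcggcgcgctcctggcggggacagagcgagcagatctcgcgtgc
Shank3: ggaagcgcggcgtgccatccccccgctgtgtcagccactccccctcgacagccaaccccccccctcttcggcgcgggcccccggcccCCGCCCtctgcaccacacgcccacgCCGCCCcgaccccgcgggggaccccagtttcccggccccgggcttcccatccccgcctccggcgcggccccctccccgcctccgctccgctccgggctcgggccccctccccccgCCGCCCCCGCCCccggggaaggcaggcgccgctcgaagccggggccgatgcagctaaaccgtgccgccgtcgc

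The Camk2b window held 51 CpG dinucleotides and the Shank3 window 40, against 17 in the Nrgn window and a median of 7 over 32851 windows of the same length. GC boxes numbered 3 in Camk2b, where 1 pair of matches overlapped, 4 in Shank3 and 1 in Nrgn, and 35.7% of all windows held at least 1. The Nrgn window also held 1 CCAAT box, a motif found in 37.4% of all windows. The same search covered the TATA box TATAAA (13.6% of windows), the cAMP-response half-site TGACG (20.8%), the E box CACGTG (7.15%) and the nuclear receptor half-site AGGTCA (16.3%), and the letters of these were not in the 3 printed windows. A match of letters describes the window and is not a binding site.

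Compared per kilobase of exon (CPM per kb), Camk2b was the most abundant of the 9 in set 2 control neurons at 96.5 ± 0.81 and in ADM control neurons at 70.2 ± 10.7 (SD, n = 2 each). Nrgn led in set 1 control neurons at 348 ± 46.9 CPM per kb, with Camk2b next at 84.7 ± 1.04. In all 3 hippocampus libraries the order began with Nrgn, Camk2a and Camk2b, at 670.9, 557 and 125 CPM per kb in the control shRNA library without FC. Dlgap1 was the lowest per kilobase in the 3 control cultures, at 12.2 to 14.3 CPM per kb, and Shank2 was the lowest in the hippocampus, at 24.5 to 28.2 CPM per kb.

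Nrgn was by far the most variable gene between cultures. Its lowest culture library had 35.3 CPM, the median library 46.9 CPM and the highest 554 CPM. The 2 set 1 control libraries, at 554 and 458 CPM, stood above the other 12 culture libraries, of which the highest had 94.5 CPM. Group means of the 3 control cultures differed 13.7-fold for Nrgn and 2.44-fold for Camk2a, against 1.18-fold to 1.72-fold for the other 7 genes. These levels are set across tables that were deposited separately.

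All member genes were higher in each hippocampus library than in any culture library. Camk2a, the kinase subunit that marks mature forebrain excitatory neurons, showed the widest gap. It had 4620, 3291 and 4156 CPM in the hippocampus libraries (ApoE shRNA with FC, control shRNA with FC, control shRNA without FC), against 78.8 to 388 CPM in the 14 culture libraries. The hippocampus library without FC held 17.8 times the mean of the 6 control cultures for Camk2a, 4.82 times for Nrgn, 3.07 times for Dlgap3 and 1.44 to 2.68 times for the other 6 genes. Tissue and culture differ in cells and preparation and may differ in age, and these cannot be told apart here.

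**Figure D1:**
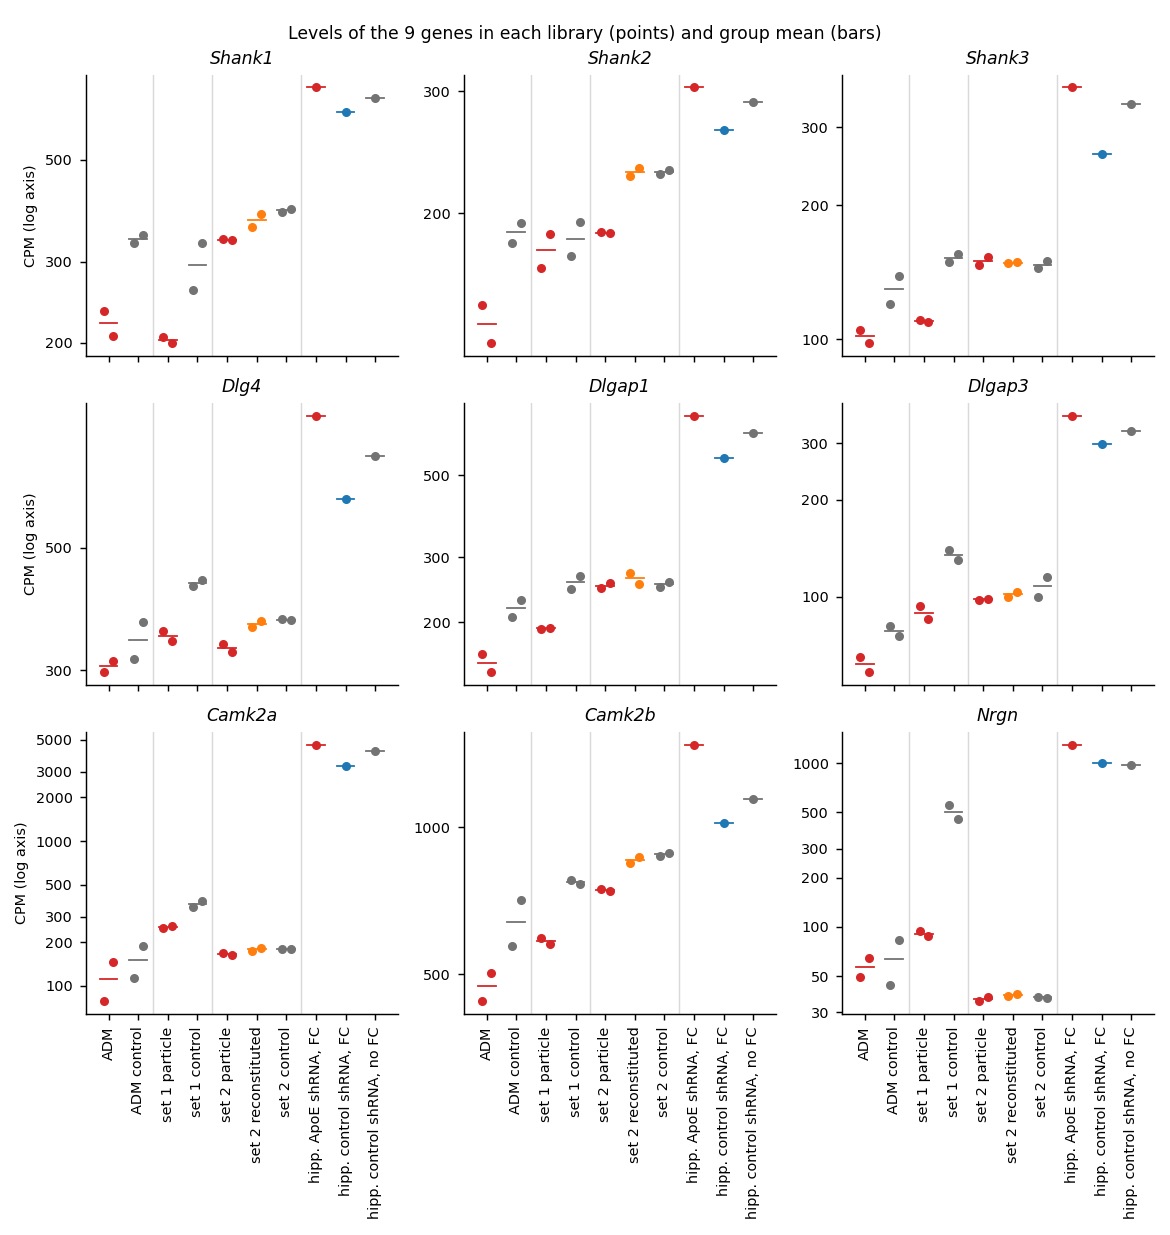
Level of each of the 9 genes in every library, in CPM on a log axis; points are libraries, bars are group means, and grey lines part the 4 experiments. Nrgn stands at 554 and 458 CPM in the set 1 control libraries, and Camk2a at 3291 to 4620 CPM in the hippocampus against 78.8 to 388 CPM in cultures.

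The balance of the 2 kinase subunits can be read within a library and so does not depend on how libraries are scaled. There were 3.13, 3.22 and 3.63 Camk2a counts per Camk2b count in the hippocampus (ApoE shRNA with FC, control shRNA with FC, control shRNA without FC), against 0.179 to 0.507 in the cultures. The ratio was 0.426 and 0.451 in set 1 particle neurons and 0.453 and 0.507 in set 1 control neurons. In set 2 it was 0.2275 and 0.221 in particle neurons, 0.206 and 0.211 in reconstituted particle neurons and 0.204 and 0.202 in control neurons. The ratio was thus lower with the particle in set 1 and higher in set 2. The groups of each set did not overlap, which alone is weak with 2 libraries a group. In set 1 the nearest libraries of the 2 groups were at 0.451 and 0.453. ADM neurons had ratios of 0.179 and 0.289, and ADM control neurons overlapped them at 0.1997 and 0.267. All these differences were small beside that between tissue and culture.

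Among the Shank genes the balance was steadier. Shares are of the summed Shank counts after each gene's counts were divided by its exon length. Shank1 took 39.4% to 51.2% of this sum in cultures and 49.96% to 53.3% in the hippocampus. Shank2 took 32.9% and 35.99% in set 1 particle neurons, against 28.2% and 27.3% in set 1 control neurons. In set 2 the Shank2 share was 26.7% and 26.4% in particle neurons and 28.8% and 28.65% in control neurons. Shank2 thus held a larger share with the particle in set 1 and a smaller one in set 2. Neither pair of groups overlapped, which alone is weak with 2 libraries a group.

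**Figure D2:**
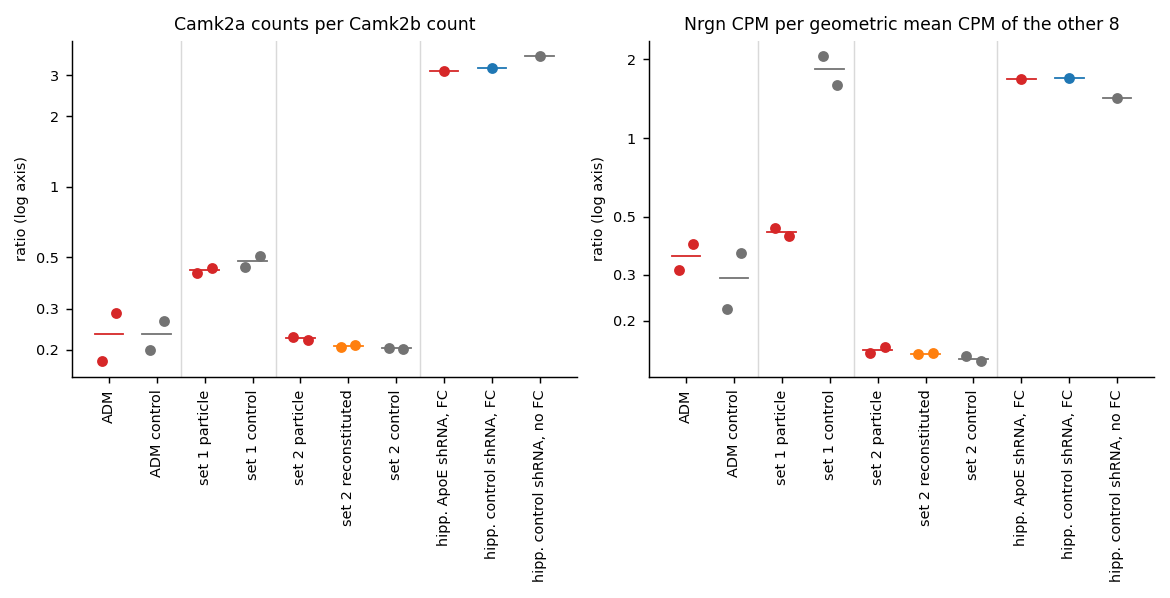
Camk2a counts per Camk2b count (left) and Nrgn CPM per geometric mean CPM of the other 8 genes (right) in every library, on log axes; points are libraries and bars are group means. The Camk2a to Camk2b ratio is 3.13 to 3.63 in the hippocampus and 0.179 to 0.507 in cultures, and the Nrgn ratio is 0.4525 and 0.423 in set 1 particle neurons against 2.06 and 1.60 in set 1 control neurons.

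With the ApoE particle in set 1, 8 of the 9 genes fell and 0 rose, while 17.4% of the 16475 genes tested fell and 18.9% rose. The median log2 fold change was −0.58 for the 9 genes and −0.01 for all genes tested. Nrgn fell most, and the scaffold and kinase genes fell by less. Under a scaling of the libraries to the pan-neuronal marker sum, however, 1 fell (Nrgn), 1 rose (Shank2) and the other 7 did not pass, while 2.98% of all genes tested fell and 61.8% rose.

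Nrgn had 94.5 and 87.6 CPM in particle neurons, against 554 and 458 CPM in control neurons. The groups lay far apart, and the particle libraries were close to each other. The log2 fold change was −2.58 ± 0.11 (SE; edgeR quasi-likelihood F test, adjusted p = 8.83e-07), or 0.168 times the control level. With 1 library left out in turn it stayed called, at log2 −2.70 to −2.44.

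The kinase subunits fell by similar amounts. Camk2a had 253 and 259.8 CPM in particle neurons, against 353 and 388 CPM in control neurons (log2 −0.64 ± 0.09, adjusted p = 0.000346). Camk2b had 593.5 and 576 CPM in particle neurons, against 779 and 766 CPM in control neurons (log2 −0.50 ± 0.09, adjusted p = 0.001035). All 4 particle values lay below their controls, which alone is weak with 2 libraries a group.

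Of the Shank scaffolds, Shank1 had 206 and 199.5 CPM in particle neurons, against 261 and 329 CPM in control neurons (log2 −0.65 ± 0.12, adjusted p = 0.00135). Shank3 had 110.5 and 109 CPM in particle neurons, against 149.5 and 155 CPM in control neurons (log2 −0.58 ± 0.09, adjusted p = 0.000351). Shank2 had 167 and 187 CPM in particle neurons, against 173.5 and 194 CPM in control neurons. The Shank1 and Shank3 groups were apart, whereas those of Shank2 overlapped and it did not pass the test (log2 −0.16 ± 0.10, adjusted p = 0.236). Shank2 was called without the first control library, at an adjusted p of 0.00246.

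Dlg4 and the linkers followed. Dlgap3 had 93.6 and 84.95 CPM in particle neurons, against 140.1 and 129.9 CPM in control neurons (log2 −0.70 ± 0.09, adjusted p = 0.000145). Dlgap1 averaged 192 ± 1.34 CPM in particle neurons and 256 ± 14.8 CPM in control neurons (SD, n = 2 each; log2 −0.52 ± 0.09, adjusted p = 0.00105). Dlg4 averaged 346 ± 9.90 CPM in particle neurons and 432 ± 8.31 CPM in control neurons (log2 −0.42 ± 0.09, adjusted p = 0.00335), and its call was lost without the second particle library (adjusted p = 0.110). Groups were apart for all 3, which alone is weak with 2 libraries a group.

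**Figure D3:**
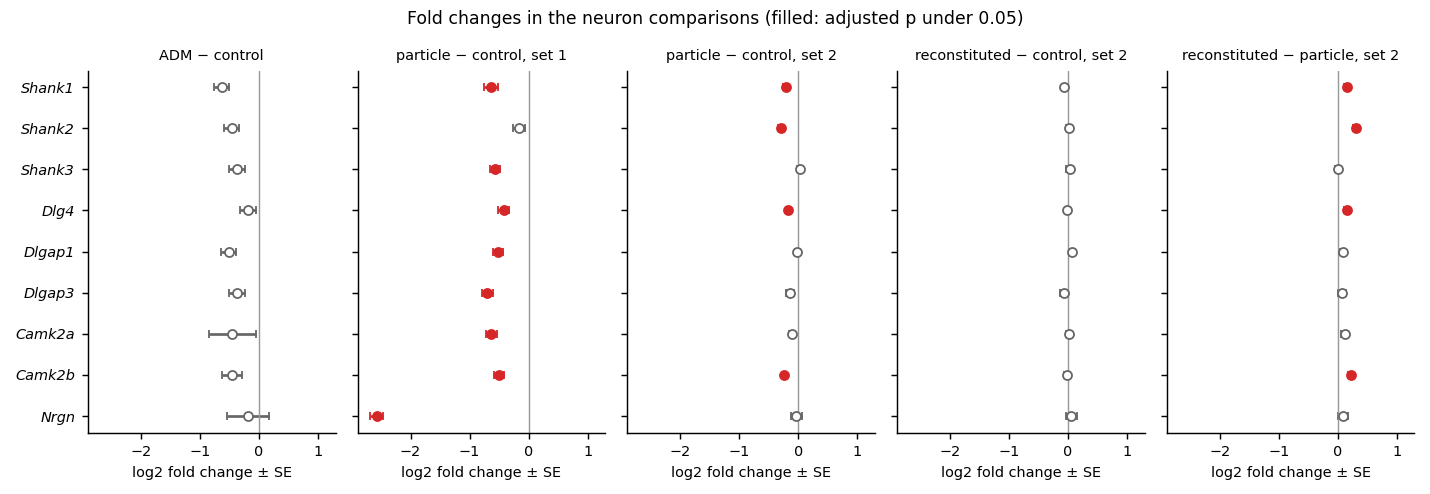
Log2 fold change ± 1 SE of each gene in the 5 neuron comparisons, under TMM scaling; filled red points have an adjusted p under 0.05 and the vertical line is no change. Nrgn lies at −2.58 in set 1, the other filled points in set 1 lie between −0.70 and −0.42, and those in set 2 between −0.30 and 0.31.

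Markers of other cells moved in the same libraries. The pan-neuronal markers summed to 8636 and 8277 CPM in set 1 particle neurons, against 11230 and 11310 CPM in control neurons, and 13 of these 14 genes fell (median log2 −0.59). Excitatory neuron markers, with Neurod6 the highest, summed to 749 and 719 CPM with the particle, against 1113 and 1066 CPM in controls, and 9 of 11 fell (median log2 −0.46). Microglia markers, led by C1qa and C1qc, summed to 273 and 271 CPM with the particle, against 80.1 and 63.2 CPM in controls, and 10 of 11 tested rose with Tmem119 at 0 in 1 control library. Astrocyte markers, led by Slc1a3 and Gfap, summed to 4954 and 4787 CPM with the particle, against 3539 and 3227 CPM in controls, and 9 of 11 tested rose. All 12 proliferation markers, led by Top2a and Mki67, rose, with sums of 684.5 and 816 CPM with the particle against 199.9 and 173 CPM in controls. The part of these shifts in the members' falls was not tested.

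Scaling each library to its pan-neuronal sum put the median of all genes at 0.51 in set 1, with the members' median at −0.06. On that scale Nrgn was still lower (log2 −2.06 ± 0.11, adjusted p = 2.49e-08). Shank2 rose (log2 0.36 ± 0.10, adjusted p = 0.00717) but stayed below the median of all genes, Dlg4 stood at 0.10 and Camk2b at 0.01, and the other 5 lay between −0.18 and −0.00, all without a call. The ratio of Nrgn to the other 8 genes within a library, which no scaling touches, was 0.4525 and 0.423 in particle neurons, against 2.06 and 1.60 in control neurons.

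**Figure D4:**
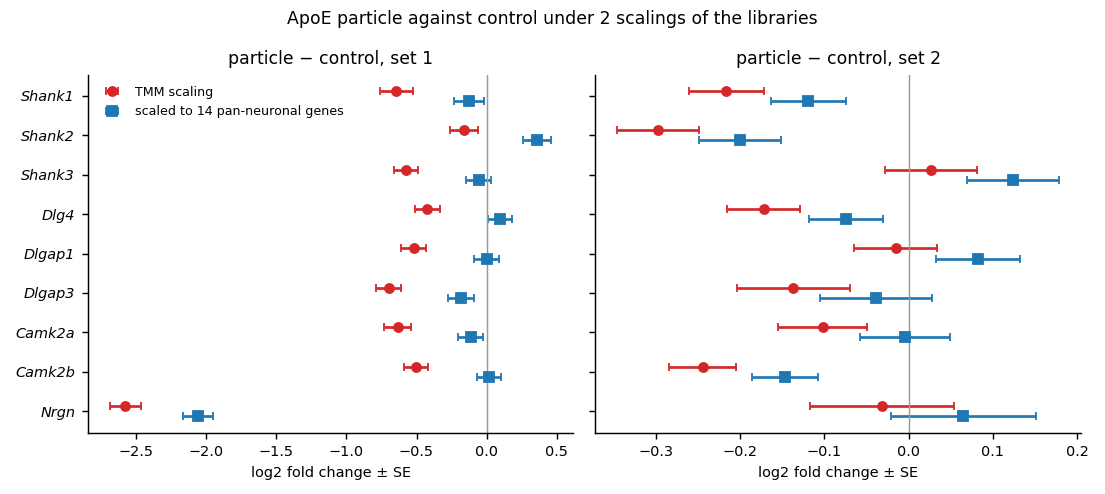
Log2 fold change ± 1 SE of each gene for ApoE particle against control in set 1 (left) and set 2 (right), with TMM scaling (red circles) and with libraries scaled to 14 pan-neuronal genes (blue squares); the panels have different horizontal ranges. In set 1 Nrgn is at −2.58 and −2.06 under the 2 scalings, while Shank2, Dlg4 and Camk2b change sign.

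Other synapse genes of set 1 were read from lists of related genes. Of 22 other scaffolds and adaptors, 11 fell and 3 rose (median log2 −0.29): Anks1b (−0.71 ± 0.09, adjusted p = 0.000147) and Dlg3 (−0.59 ± 0.09, adjusted p = 0.000347), a close relative of Dlg4, fell. Tanc1 (1.26 ± 0.12, adjusted p = 2.415e-05) and Homer3 (1.11 ± 0.15, adjusted p = 0.000168), a Homer family member, rose. Of 17 tested calmodulin kinases and partners, 15 fell and 0 rose (median −0.47), among them Camk2n1 (−0.79 ± 0.10) and Camk2n2 (−0.67 ± 0.11), which encode inhibitors of the kinase, Gap43 (−0.69 ± 0.09), which encodes an axonal relative of neurogranin, and Camk1g (−0.61 ± 0.10). The adjusted p of these 4 ran from 0.000142 to 0.000747.

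Receptors fell as well, 13 of 16 with 0 rising (median −0.56). Lrrtm1, a synaptic adhesion gene, averaged 43.1 ± 2.57 CPM in particle neurons and 83.9 ± 4.97 CPM in control neurons. Grin1, the obligatory NMDA receptor subunit, averaged 90.6 ± 0.67 CPM in particle neurons and 133 ± 1.14 CPM in control neurons, and Cacng3 and Cacng2, which encode AMPA receptor auxiliary subunits, fell by 0.88 ± 0.11 and 0.70 ± 0.10 on the log2 scale. Inhibitory postsynaptic genes fell in 7 of 8 cases (median −0.43), with Nlgn2, an adhesion gene of inhibitory synapses, at −0.55 ± 0.09. All 14 presynaptic genes fell (median −0.77), led by Slc17a7, the vesicular glutamate transporter, with 48.3 ± 1.21 CPM in particle neurons and 154 ± 10.2 CPM in control neurons (log2 −1.77 ± 0.09). Syt1, Snap25 and Syn2 fell by 0.95, 0.96 and 0.90 on the log2 scale. These lists were chosen with earlier results of the data known. Gap43 and Snap25 are also on the pan-neuronal list, and Slc17a7 is also on the list of excitatory neuron markers.

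In set 2 the same ApoE particle label went with smaller changes. Under TMM scaling 4 of the 9 genes fell and 0 rose, while 12.1% of 16388 genes fell and 10.0% rose, with a median log2 of −0.14 for the 9 genes and 0.00 for all genes. Shank1, Shank2, Dlg4 and Camk2b were the 4. On the pan-neuronal scale 3 of them were called and Dlg4 was not (log2 −0.07, adjusted p = 0.226), where 7.66% of all genes fell and 19.6% rose.

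Shank2 had 188 and 187 CPM in particle neurons, against 228 and 231 CPM in control neurons (log2 −0.30 ± 0.05, edgeR adjusted p = 6.93e-05). Camk2b had 747 and 742 CPM in particle neurons, against 875 and 885 CPM in control neurons (log2 −0.24 ± 0.04, adjusted p = 7.37e-05). Shank1 had 336 and 334.5 CPM in particle neurons, against 386 and 391.5 CPM in control neurons (log2 −0.22 ± 0.04, adjusted p = 0.000875). In these 3 genes both particle libraries lay below both controls, as they also did for Dlg4 and for Dlgap3 and Camk2a, which were not called. With 2 libraries a group this alone is weak. Dlg4 averaged 329.6 ± 7.07 CPM in particle neurons and 371 ± 1.39 CPM in control neurons (log2 −0.17 ± 0.04, adjusted p = 0.00544), a call lost without the second control library (adjusted p = 0.0555) or the second particle library (0.0862).

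The other 5 genes did not pass. Nrgn had 35.3 and 37.3 CPM in particle neurons, against 37.3 and 36.8 CPM in control neurons (log2 −0.03 ± 0.09, adjusted p = 0.838). Its groups overlapped at a level far below that of either set 1 group. Camk2a averaged 167 ± 4.46 CPM in particle neurons and 179 ± 0.10 CPM in control neurons (log2 −0.10 ± 0.05, adjusted p = 0.18). Dlgap3 (log2 −0.14 ± 0.07), Dlgap1 (−0.02 ± 0.05) and Shank3 (0.03 ± 0.05) had adjusted p of 0.156, 0.868 and 0.783, and Dlgap3 was called without the first control library (adjusted p = 0.0346).

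Markers of other cells moved the other way in set 2. Pan-neuronal sums were 10240 and 10490 CPM with the particle, against 11010 and 11110 CPM in controls, with 4 of 14 genes falling and 1 rising. Astrocyte markers summed to 1202 and 1329 CPM with the particle, against 1829 and 1709 CPM in controls, and 8 of 11 fell. Of the 12 proliferation markers 10 fell, with sums of 162 and 179.9 CPM with the particle against 290.6 and 241 CPM in controls. Microglia markers summed to at most 1.57 CPM in every set 2 library, with Itgam, Trem2 and Tyrobp at 0 in all 6. The part of these shifts in the members' values was not tested.

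Among related genes in set 2, 10 of 22 other scaffolds fell and 1 rose. Sipa1l1 (−0.51 ± 0.05, adjusted p = 9.38e-08), Tanc1 (−1.08 ± 0.12) and Baiap2 (−0.46 ± 0.08) were among those that fell. Of 17 calmodulin kinases and partners 5 fell and 2 rose, with Gap43 (−0.36 ± 0.04), Camk4 (−0.38 ± 0.05), Camk1 (−0.57 ± 0.10) and Calm3 (−0.21 ± 0.04) lower. Among 16 receptor genes 6 fell and 1 rose: the AMPA receptor subunit gene Gria1 (−0.31 ± 0.05), the NMDA receptor subunit gene Grin2b (−0.20 ± 0.04) and Lrrtm2 (−0.33 ± 0.08) fell, and Cacng3 (0.68 ± 0.09) rose. Of 8 inhibitory genes 3 rose, among them Gphn (0.28 ± 0.06) and Gabra2 (0.22 ± 0.06), and Nlgn2 (−0.17 ± 0.05) fell. Of 14 presynaptic genes 9 fell and 1 rose. Slc17a7 averaged 29.5 ± 1.09 CPM in particle neurons and 62.7 ± 0.13 CPM in control neurons (log2 −1.09 ± 0.08). Cplx2, Bsn and Syn1 stood at −0.40, −0.32 and −0.26. On the list of excitatory neuron markers, where Slc17a7 was the lowest, 4 of 11 fell and 0 rose (median log2 0.02).

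The reconstituted ApoE particle, the third condition of set 2, left the 9 genes near control. In this comparison 0 of 9 genes were called, as were 0.0% of 16388 genes in either direction with edgeR and 0 with DESeq2. At an unadjusted p under 0.05 edgeR had 776 genes and 0 of the 9. The log2 differences lay between −0.07 ± 0.07 (Dlgap3) and 0.07 ± 0.05 (Dlgap1). Nrgn averaged 38.2 ± 0.86 CPM in reconstituted particle neurons and 37.05 ± 0.36 CPM in control neurons (log2 0.06 ± 0.09). Camk2b averaged 858 ± 16.2 CPM in reconstituted particle neurons and 880.1 ± 7.35 CPM in control neurons.

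Set beside the ApoE particle directly, the reconstituted particle had 4 of the 9 genes higher and 0 lower, where 11.4% of genes were higher and 8.88% lower. This contrast shares its libraries with the 2 above, so it is no separate evidence. Shank2 had 227 and 233 CPM in reconstituted particle neurons, against 188 and 187 CPM in particle neurons (log2 0.31 ± 0.05, adjusted p = 4.35e-05). Camk2b rose by 0.22 ± 0.04 (adjusted p = 0.000238), Dlg4 by 0.16 ± 0.04 (0.0109) and Shank1 by 0.16 ± 0.04 (0.0136) on the log2 scale. The other 5 lay between 0.00 and 0.12, and scaled to the pan-neuronal sum 1 gene, Shank2, stayed called as higher, where 6.29% of all genes were higher and 23.2% lower. Without the second reconstituted or the second particle library 2 genes were called.

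Related genes followed the same contrast: 10 of 22 other scaffolds were higher and 0 lower, with Sipa1l1 at 0.52 ± 0.05, Lrrc7 at 0.47 ± 0.06, Kalrn at 0.38 ± 0.06 and Tanc1 at 0.72 ± 0.13. Camk4 (0.48 ± 0.05), Gap43 (0.33 ± 0.04) and Calm3 (0.23 ± 0.04) were higher and Camk2n2 (−0.33 ± 0.08) was lower, within 4 higher and 2 lower of 17. Of 16 receptor genes 5 were higher, with Grin2b (0.34 ± 0.04), Gria1 (0.39 ± 0.05) and Grin2a (0.45 ± 0.09), and 1 was lower, Cacng3 (−0.66 ± 0.10). Of 8 inhibitory genes 3 were lower, among them Gphn (−0.39 ± 0.06). Of 14 presynaptic genes 9 were higher and 1 lower, with Slc17a7 at 1.05 ± 0.08, Cplx2 at 0.44 ± 0.05, Bsn at 0.34 ± 0.05 and Syn1 at 0.29 ± 0.05.

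Whether the ApoE particle effect differed between the sets was tested as an interaction. The effect was higher in set 2 than in set 1, that is, less negative, for 6 of the 9 genes and lower for 0, while 14.8% of 17098 genes were higher and 16.4% lower. Nrgn differed most, by 2.52 ± 0.13 on the log2 scale (adjusted p = 4.47e-09). Shank3, Dlgap3, Camk2a, Dlgap1 and Shank1 differed by 0.40 to 0.58, with adjusted p of 0.000356 to 0.0323, and the Shank1 difference was lost when any of 6 libraries was left out (adjusted p up to 0.129). Camk2b (0.23 ± 0.09, adjusted p = 0.0596), Dlg4 (0.22 ± 0.09, adjusted p = 0.0818) and Shank2 (−0.16 ± 0.11, adjusted p = 0.285) did not pass. These 3 depended on the fit: Camk2b was called with DESeq2 (adjusted p = 0.0336), with no filter (0.0389) and without the first or the second set 1 control library (0.0047 and 0.00518). Dlg4 was called without either of those libraries (adjusted p = 0.00361 and 0.0298), and Shank2 without the second (0.0146). On the pan-neuronal scale Nrgn was higher (2.12 ± 0.13), Shank2 was lower (−0.56 ± 0.11, adjusted p = 0.000962) and the other 7 were not called, while 4.19% of all genes were higher and 37.9% lower around a median of −0.39. The sets also differ in their controls, with Nrgn at 37.05 ± 0.36 CPM in set 2 control neurons and 506 ± 68.1 CPM in set 1 control neurons.

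Among related genes, the set 2 effect was higher for 11 of 17 calmodulin kinases and partners, 7 of 16 receptor genes, 7 of 8 inhibitory genes and 10 of 14 presynaptic genes, with 0 lower in each of these lists. Camk2n1 (0.92 ± 0.13), Camk2n2 (0.90 ± 0.14) and the calcineurin genes Ppp3ca (0.66 ± 0.10) and Ppp3cb (0.53 ± 0.10) were in the first of these. Cacng3 (1.53 ± 0.14), Lrrtm1 (1.07 ± 0.11), Grin1 (0.76 ± 0.10) and Cacng2 (0.61 ± 0.11) led the receptors, and Gphn (0.51 ± 0.11) was among the inhibitory genes. Snap25 (1.00 ± 0.10), Syp (0.92 ± 0.10), Vamp2 (0.84 ± 0.10) and Syt1 (0.76 ± 0.09) led the presynaptic genes. Other scaffolds were split, with 5 higher, such as Cnksr2 (0.77 ± 0.14) and Dlg3 (0.53 ± 0.10), and 4 lower, such as Tanc1 (−2.36 ± 0.17) and Homer3 (−1.37 ± 0.20).

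ADM treatment gave lower values for every one of the 9 genes, and for 48.1% of all genes tested, but no call in the edgeR fit without pairing. In this comparison 0 of 9 genes and 0.0% of 16191 genes passed in either direction with edgeR, and DESeq2 called 304 genes with 0 of the 9 among them. With replicate number as a block, edgeR called 465 genes, 92 of them lower, with Shank1 the 1 member (lower, adjusted p = 0.0365). The labels do not mark pairs. At an unadjusted p under 0.05 edgeR had 6 of the 9, all lower, against 2.76% of all genes lower at that level. The median log2 was −0.45 for the 9 genes and 0.02 for all genes.

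Shank1 had 234 and 207 CPM in ADM neurons, against 330.1 and 343 CPM in ADM control neurons (log2 −0.63 ± 0.12, edgeR adjusted p = 0.473). Dlgap1 had 164 and 146 CPM in ADM neurons, against 206 and 229.5 CPM in ADM control neurons (log2 −0.51 ± 0.13, adjusted p = 0.5396). Shank2 had 147 and 129.8 CPM in ADM neurons, against 181.5 and 194 CPM in ADM control neurons (log2 −0.46 ± 0.13). The libraries of the groups were apart for these 3 and for Shank3, Dlg4, Dlgap3 and Camk2b, whose log2 values were −0.38, −0.18, −0.37 and −0.46. With 2 libraries a group, libraries can lie apart by chance alone, and the share of all genes apart was not counted.

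Camk2a and Nrgn overlapped between ADM and control, and the first library was the lower one in both groups. Camk2a had 78.8 and 146 CPM in ADM neurons, against 114 and 189.5 CPM in ADM control neurons (log2 −0.45 ± 0.40, adjusted p = 0.757). Nrgn had 49.7 and 64.2 CPM in ADM neurons, against 44.0 and 83.6 CPM in ADM control neurons (log2 −0.19 ± 0.35, adjusted p = 0.902). Other markers also split the second ADM library from the first: the vessel and fibroblast markers summed to 1218 CPM in it and 69.3 CPM in the first ADM library, against 72.8 and 23.0 CPM in the second and first ADM control libraries. Pan-neuronal markers summed to 9395 and 10220 CPM in ADM neurons, against 11050 and 12370 CPM in ADM control neurons, and on that scale Dlg4 and Nrgn had positive values (log2 0.10 and 0.11), with 0 of the 9 called and 0.0185% of all genes rising. Excitatory neuron markers, with Neurod6 the highest, summed to 1334 and 821 CPM in ADM neurons, against 1813 and 1373 CPM in ADM control neurons, and 0 of these 11 were called (median log2 −0.69). Their part in the members' values was not tested.

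A second interaction set the effect of ADM against that of the particle in set 1. edgeR called 0 of the 9 genes and 0.0% of 17292 genes, with 1768 genes and 1 of the 9 at an unadjusted p under 0.05, and DESeq2 called 201 genes. The 1 member was Nrgn, whose ADM effect was higher by 2.34 ± 0.42 on the log2 scale (edgeR adjusted p = 0.167, DESeq2 adjusted p = 7.79e-06). The other 8 lay between −0.35 and 0.28. This contrast and the one between the sets share the set 1 libraries.

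The hippocampus libraries set an shRNA against Apoe beside a control shRNA under FC, with 1 library per group and so no test. An ApoE shRNA group without FC was not analysed here, so a response to FC under the ApoE shRNA could not be formed. Each ratio is a log2 ratio of CPM with a 95% interval that covers counting error only. With the ApoE shRNA and FC, all 9 genes were higher than with the control shRNA and FC, as were 48.02% of all genes compared. The median log2 ratio was 0.38 for the 9 genes and −0.02 for all genes. It was 0.40 for presynaptic genes (12 of 14 above 0) and 0.30 for other scaffolds (18 of 22). Pan-neuronal markers had a median of 0.30 (10 of 14 above 0) and excitatory neuron markers one of −0.19 (5 of 11). No member lay past 1.5-fold (0 of 9), where 4.46% of 12474 genes were higher and 17.9% lower than that; scaled by TMM factors, Camk2b passed it at 0.59.

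Camk2b had 1476 CPM with the ApoE shRNA and FC, against 1023 CPM with the control shRNA and FC (log2 ratio 0.53, interval 0.50 to 0.56). Dlg4 had 864 CPM with the ApoE shRNA, against 611 CPM with the control shRNA (0.50, interval 0.465 to 0.54), and Shank3 had 369 CPM against 261 CPM (0.50, interval 0.44 to 0.55). Camk2a had 4620 CPM with the ApoE shRNA, against 3291 CPM with the control shRNA (0.49, interval 0.47 to 0.50). The other 5 genes lay between 0.18 (Shank1) and 0.38 (Dlgap1), with Nrgn at 0.37.

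The control shRNA library with FC stood apart from the other 2. Against control shRNA without FC it was lower for 8 of the 9 genes, by 0.10 (Shank1) to 0.37 (Shank3) on the log2 scale, and Nrgn was at 0.04; the median was −0.16 for the 9 genes and 0.03 for all genes. Of all genes compared, 53.21% were higher in it than without FC. The median was −0.13 for other scaffolds, −0.25 for presynaptic genes and −0.20 for pan-neuronal markers. Again 0 of 9 lay past 1.5-fold, with 12.3% of 12510 genes higher and 4.46% lower than that. Its microglia markers, led by C1qa and Csf1r, summed to 1648 CPM. They summed to 273 CPM with the ApoE shRNA and FC and 364 CPM with the control shRNA without FC. Of the 12 astrocyte markers, 9 were higher in the control shRNA library with FC than without FC (median log2 ratio 0.12). Past 1.5-fold, 3 were higher and 0 lower. With the ApoE shRNA and FC, 2 of the 12 were higher than with the control shRNA and FC (median −0.63). Gfap, an astrocyte marker named after its value was seen, stood at 2117 CPM in the control shRNA library with FC. It stood at 457 CPM with the ApoE shRNA and FC and 569.6 CPM with the control shRNA without FC. Pan-neuronal sums were 5868 CPM in the control shRNA library with FC, 6646 CPM with the ApoE shRNA and FC and 6727 CPM with the control shRNA without FC. On that scale 4 of the 8 falls and the Shank1 difference between the FC libraries changed sign. The part of these marker shifts in the ratios was not tested.

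Without that library, the ApoE shRNA hippocampus with FC can be set against the control shRNA hippocampus without FC, where both shRNA and FC differ. All 9 genes were higher by a median log2 ratio of 0.15, against 0.01 for all genes, of which 51.02% were higher. The median was 0.17 for other scaffolds, 0.14 for presynaptic genes, 0.10 for pan-neuronal markers and −0.03 for receptor genes. Past 1.5-fold lay 0 of 9, with 1.14% of 11980 genes higher and 6.09% lower than that. Nrgn had 1292 CPM with the ApoE shRNA and FC, against 975 CPM with the control shRNA without FC (log2 ratio 0.41, interval 0.38 to 0.43), and Camk2b had 1476 CPM against 1144 CPM (0.37, interval 0.34 to 0.39). The other 7 lay between 0.07 and 0.24.

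**Figure D5:**
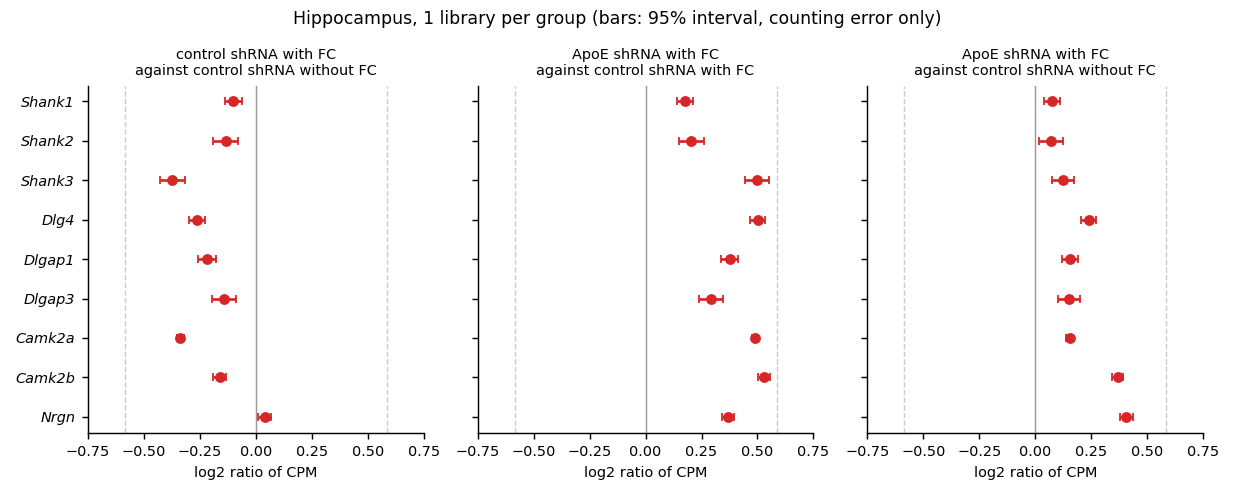
Log2 ratio of CPM of each gene between hippocampus libraries, 1 library per group; bars are 95% intervals for counting error only, and dashed lines mark 1.5-fold. All 9 genes are above 0 in both comparisons of the ApoE shRNA library, with medians of 0.38 and 0.15, where 48.02% and 51.02% of all genes are above 0. None of the 9 passes the dashed lines under scaling to library totals.

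Across the 14 culture libraries, the genes could be grouped by how they varied within experiments. Pearson r was taken over log2(CPM + 1), centred on the mean of each experiment, and it is a description over 14 libraries that share depth, treatment and cell mix. Shank3 and Dlgap1 were the closest members (r = 0.954), followed by Dlg4 and Camk2b (0.94) and Shank1 and Dlgap1 (0.935). Nrgn was nearest to Dlg4 (0.822) and farthest from Shank2 (0.12), and the nearest member to Camk2a was Camk2b (0.845). Among 7491 other genes, the 6 closest to the mean of the 9 were Psd (0.987), Kcng1 (0.98), Map6 (0.977), Fbxo41 (0.974), Klhl18 (0.974) and Dpysl5 (0.973). With Nrgn left out of the mean, the closest was Mapt (0.99), the pan-neuronal marker with the highest culture levels, named after its value was seen.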

How the data were processed

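Gene expression was measured by RNA-seq in 17 mouse libraries, made per the labels' protocols from Trizol-extracted total RNA (2 μg each) with the NEBNext Ultra kit for Illumina. Bowtie2 2.2.3, HISAT2 2.1.0 and HTSeq 0.6.0, and the genome build mm10, are named in the submitters' processing notes. The step each tool served, the annotation and the strand setting were not given in the sources used here. What the authors deposited are raw gene counts with no normalization, whole numbers whose totals differ between libraries (14.62 to 19.14 M).

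CPM are counts divided by the library total and scaled to a common total, and CPM per kb by the exon union of GENCODE M21. Exons of Shank1, Shank3 and Dlgap1 share 3.22%, 2.95% and 0.514% of their bases with a gene on the other strand, so some of their counts could belong to it. In set 2, 1489 genes with values in the reconstituted particle libraries alone were left out (0.226% and 0.232% of those libraries' counts).

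Each neuron comparison was fitted across all genes with edgeR 4.0.16 in R 4.3.3 (filterByExpr, TMM factors, robust quasi-likelihood F test), with Benjamini-Hochberg adjustment over all genes tested and 0.05 as the threshold. All 9 genes passed the filter in every comparison. Groups are said to be apart where their libraries did not overlap. With 2 libraries a group this can arise by chance alone, and its share over all genes was not counted. The 3 groups of set 2 shared a fit, and interactions used the genes in both tables. Standard errors were computed from the log2 fold change and its F value. Hippocampus ratios used a prior of 0.5 counts, exact binomial intervals and, as background, genes whose higher library had 100 counts or more. Alternatives were DESeq2 1.42.0, library totals, scaling to the pan-neuronal sum, no filter, a replicate block and leaving out each library. The fit was tested on simulated data.

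The members and gene lists were chosen with earlier results of these data known. From each synapse list the text names up to 4 called genes with the lowest adjusted p per comparison, and from each marker list the 2 genes of highest mean CPM; a few further markers were named after their values were seen. Some genes that this rule selects are not reported here. Likeness used genes with a mean of at least 20 CPM in each culture table.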

Additional observations from a re-analysis of the deposited data

Results flagged for a closer look

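For 6 of the 9 genes the ApoE particle effect differed between set 2 and set 1 by an interaction test (edgeR, adjusted over all genes). The difference, set 2 minus set 1 on the log2 scale, was 2.52 for Nrgn, 0.58 for Shank3, 0.53 for Dlgap3, 0.505 for Camk2a, 0.48 for Dlgap1 and 0.40 for Shank1. Scaled to the pan-neuronal sum, that for Nrgn alone among these 6 stayed called.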

How the results depend on the processing

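Scaling is the choice the members depend on most. Scaled to the pan-neuronal sum, members called went to 2 in set 1 (8 with TMM), 1 for reconstituted against ApoE particle (4) and 2 for set 2 minus set 1 (6); genes called overall were 10678 in set 1 and 3 for ADM; and the median of all genes shifted to 0.51 (set 1), 0.10 (set 2), −0.13 (reconstituted against ApoE particle), 0.29 (ADM), −0.39 (set 2 minus set 1) and −0.18 (ADM minus set 1). Signs then turned for Dlg4 (0.098) and Nrgn (0.11) with ADM; Shank2 (0.36), Dlg4 (0.096) and Camk2b (0.014) in set 1; Dlgap1 (0.082) and Nrgn (0.065) in set 2; Shank2 (−0.021), Shank3 (−0.0045) and Camk2a (−0.019) for reconstituted against control; Shank3 (−0.13), Dlgap1 (−0.048), Dlgap3 (−0.065), Camk2a (−0.015) and Nrgn (−0.040) for reconstituted against ApoE particle; Dlg4 (−0.17) and Camk2b (−0.16) for set 2 minus set 1; Shank3 (−0.033) and Camk2a (−0.065) for ADM minus set 1; and, in the hippocampus, Shank1 (0.097), Shank2 (0.062), Dlgap3 (0.054) and Camk2b (0.036) for control shRNA with FC against without and Shank1 (−0.0042) for ApoE shRNA against control shRNA with FC. The cause was not tested.

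Library totals alone turned Shank2 for reconstituted against control (−0.0007) and Shank3 for reconstituted against ApoE particle (−0.014), raised the share of calls that rose in set 1 to 65.6% (52.0% with TMM), lowered it to 38.5% (47.4%) for set 2 minus set 1, and left Shank1 there without a call (adjusted p = 0.059). DESeq2 and no filter each added Camk2b there (adjusted p = 0.0336 and 0.0389). DESeq2 turned Shank3 for reconstituted against ApoE particle (−0.0018). It called 304 genes for ADM, 2358 in set 2, 2183 for reconstituted against ApoE particle and 201 for ADM minus set 1, with 1 member (Nrgn) in the last. No filter gave 128, 8 and 62 genes for ADM, reconstituted against control and ADM minus set 1. TMM factors put 1 member past 1.5-fold in the hippocampus.

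Replicate numbers were not taken as pairing, since the labels do not mark pairs and there were 2 pairs each. Deviations of same-numbered libraries correlated at 0.563 for ADM, but at 0.0464 in set 1 and −0.13 in set 2. With the replicate block 465 genes and 1 member (Shank1, −0.63, adjusted p = 0.0365) were called for ADM, 1 gene for reconstituted against control, and 502 genes and 1 member (Nrgn) for ADM minus set 1, where Camk2b turned to 0.0012; it changed no other call of a member. A crossed pairing in set 2, chosen after seeing the data, called 4 members.

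Leaving out 1 library at a time gave 0 to 641 genes for ADM, 3521 to 7610 in set 1, 2297 to 3836 in set 2, 1 to 4 for reconstituted against control, 3492 to 6245 for set 2 minus set 1 and 0 to 555 for ADM minus set 1, and 7 to 9 members in set 1, 3 to 5 in set 2, 2 to 4 for reconstituted against ApoE particle and 5 to 9 for set 2 minus set 1. Values that crossed 0 were Nrgn with ADM (−0.59 to 0.34); Shank3 (−0.0042 to 0.065), Dlgap1 (−0.046 to 0.023) and Nrgn (−0.064 to 0.0006) in set 2; Shank2 (−0.0033 to 0.030), Shank3 (−0.002 to 0.062), Dlg4 (−0.025 to 0.0018), Dlgap3 (−0.18 to 0.043) and Camk2a (−0.018 to 0.049) for reconstituted against control; Shank3 (−0.022 to 0.0255) for reconstituted against ApoE particle; and Shank1 (−0.21 to 0.13), Dlgap1 (−0.11 to 0.046), Camk2a (−0.40 to 0.55) and Camk2b (−0.14 to 0.17) for ADM minus set 1. A lone library was assumed to vary like the others. With 2 libraries a group and 1 in the hippocampus, depth is not the main limit on precision.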
